A study of Mus musculus with 9 samples.

Results

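The genes described here are 10 regulators that hold mammalian cells in an epithelial or a mesenchymal state, taken by name from the 55228 genes of a count table. The repressors that promote the mesenchymal state were *Snai1*, *Snai2*, *Twist1*, *Twist2*, *Zeb1* and *Zeb2*. The regulators that maintain the epithelial state were the transcription factors *Ovol1* and *Grhl2* and the splicing factors *Esrp1* and *Esrp2*.

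RNA-seq was carried out on 9 cultures of HC11, a mouse mammary epithelial line that can be induced to make milk proteins, to learn which transcripts differ when *Vangl2* is disrupted. *Vangl2* encodes a membrane protein of planar cell polarity. There were 3 cultures each of the parental line (WT) and of the lines KD1 and KD2, which the labels name Vangl2 knockout 1 and Vangl2 knockout 2. All cultures were undifferentiated, and the medium held 10% FBS together with EGF at 10 ng/mL and insulin at 5 µg/mL. Each KD line was nucleofected for CRISPR/Cas9 editing with its own guide RNA and a repair template that carries stop codons, and was then grown up from isolated cells. Each KD line is therefore 1 clone, and clones that had received no guide were not analysed here. Effects of the guide, of cloning and of the loss of *Vangl2* cannot be told apart within a line. The labels do not say how the 3 cultures of a line were separated, so p-values measure only the spread between these samples.

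In an epithelial-mesenchymal transition, cells give up adherens and tight junctions and take on a motile, fibroblast-like form. Members of the SNAI, ZEB and TWIST families repress junction genes such as *Cdh1*, and SNAI and ZEB proteins do so by binding E-boxes with zinc fingers. OVOL and GRHL proteins oppose them and keep junction genes active, while ESRP proteins direct the epithelial splice forms of transcripts such as *Fgfr2* and *Cd44*. The miR-200 microRNAs and the ZEB factors repress each other, and the ZEB transcripts are among the best known targets of that family.

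Because *Zeb1* and *Zeb2* turned out to be higher in a single line, the microRNAs of the miR-200 family are shown first, from RefSeq (GRCm38.p6), with the seed (bases 2 to 8) in capitals. miR-200a and miR-141 share the seed AACACUG. The other 3 share the seed AAUACUG.
mmu-miR-200a-3p: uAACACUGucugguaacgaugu
mmu-miR-141-3p: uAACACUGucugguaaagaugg
mmu-miR-200b-3p: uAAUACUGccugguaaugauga
mmu-miR-200c-3p: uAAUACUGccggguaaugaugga
mmu-miR-429-3p: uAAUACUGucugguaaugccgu

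The 7 bases complementary to the seeds, CAGTGTT and CAGTATT, were counted on the transcribed strand of the 3′UTR of each regulator, in the annotated transcript with the longest coding sequence. *Zeb1* held 9 matches in 2401 bases and *Zeb2* held 8 matches in 1450 bases. *Snai2* and *Esrp1* held 2 each, *Snai1* and *Grhl2* held 1 each, and *Twist1*, *Twist2*, *Ovol1* and *Esrp2* held 0. Of 20664 annotated 3′UTRs, 23.8% held at least 1 match. Among 3′UTRs between 0.8 and 1.25 times as long as that of *Zeb1*, only *Zeb1* itself of 2457 held as many, and among those like *Zeb2* in the same range of length only *Zeb2* itself of 2877 did. The matches in *Zeb2* are printed here, each with 8 bases on either side and the match in capitals, because this transcript had the most matches per length of the 10. A match is a description of letters and not a measured site. The libraries were made from polyadenylated RNA and do not measure mature microRNAs, and the hairpin genes of the family had 0 to 3 counts in any culture.
Zeb2 3′UTR bases 209 to 215: attttgtaCAGTGTTaaggccta
Zeb2 3′UTR bases 393 to 399: ccatacatCAGTATTttattatt
Zeb2 3′UTR bases 458 to 464: cagtgcatCAGTATTacgattcc
Zeb2 3′UTR bases 741 to 747: tccttgtaCAGTGTTcagagggt
Zeb2 3′UTR bases 782 to 788: accagcttCAGTGTTaagctcac
Zeb2 3′UTR bases 820 to 826: acccgtgtCAGTATTagacgact
Zeb2 3′UTR bases 905 to 911: aattttgtCAGTATTacaccaaa
Zeb2 3′UTR bases 1039 to 1045: gtagtgtaCAGTATTatagttct

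Depth ranged from 19231428 to 28360592 counts per culture. Values in CPM are counts as a share of the TMM-scaled library size, and 3 counts, the floor used here, corresponded to 0.0998 to 0.154 CPM. A chi-square statistic per degree of freedom between replicates was 1.37 to 1.81 within KD1 and 1.74 between KD2 replicates 1 and 2, but 17.4 and 22.1 between these and KD2 replicate 3. WT replicate 1 also stood apart, with 10.7 and 13.1 against 3.38 between the other WT cultures. The mammary epithelial markers *Krt5*, *Krt14*, *Krt8*, *Krt18*, *Cdh1* and *Epcam* summed to 4810 to 5380 CPM in WT, 5460 to 5600 in KD1 and 2870 to 3560 in KD2. The targeted gene *Vangl2* was at 3.38, 3.96 and 4.19 CPM in WT, 2.77, 1.89 and 2.78 CPM in KD1, and 3.63, 3.92 and 4.42 CPM in KD2. The KD1 cultures were below every WT culture for *Vangl2* and the KD2 cultures overlapped them. A stop codon in the message need not change the count of the message, so this level does not check the editing.

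Of the 10 regulators, 9 passed the expression filter and *Twist2* did not. The quasi-likelihood test of edgeR, with p-values adjusted by Benjamini-Hochberg over 15253 genes, called 6 of the 9 in KD1 against WT at an adjusted p under 0.05, where 56.9% of all genes tested were called. Of the 6, 1 was higher and 5 were lower, where 26.9% of all genes were higher and 30.0% lower. In KD2 against WT it called 9 of 9, where 67.2% of all genes were called, with 3 higher against 34.0% of all genes and 6 lower against 33.3%. In KD2 against KD1 it also called 9 of 9, where 67.8% of all genes were called, with 3 higher against 34.8% and 6 lower against 33.0%. With such backgrounds the counts at that threshold say little about the regulators, and a change of more than 2-fold separates the lines further. Past 2-fold, 0 regulators were higher and 1 was lower in KD1 against WT, where 16.8% of all genes were called, 9.34% higher and 7.49% lower. In KD2 against WT 8 of the 9 were past 2-fold, 3 higher and 5 lower, where 21.2% of all genes were, 14.5% higher and 6.71% lower. In KD2 against KD1 5 of the 9 were past 2-fold, 3 higher and 2 lower, where 23.3% of all genes were, 14.7% higher and 8.58% lower. Without WT replicate 1, and without KD2 replicate 3, the same number of regulators was called in KD2 against WT, 9 at the adjusted p and 8 past 2-fold. The median log2 fold change of the 9 was -0.21 in KD1 against WT, -1.18 in KD2 against WT and -0.62 in KD2 against KD1, where the median over all genes was -0.03, 0.01 and 0.02. Both comparisons with WT use the same 3 WT cultures.

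The direction followed the roles of the genes in KD2 but not throughout. In KD2, *Zeb1*, *Zeb2* and *Snai1* were higher than in WT, while *Ovol1*, *Grhl2*, *Esrp1* and *Esrp2* were all lower. *Snai2* and *Twist1*, which also promote the mesenchymal state, were lower in KD2 as well. In KD1 the direction did not follow the roles. The mesenchymal regulators *Snai1*, *Snai2* and *Twist1* were lower, and so were the epithelial regulators *Grhl2* and *Esrp1*. *Ovol1* alone was higher, and *Zeb1*, *Zeb2* and *Esrp2* did not pass the test. These are levels in whole cultures, in which fewer cells expressing a gene and less RNA per cell cannot be told apart.

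**Figure D1:**
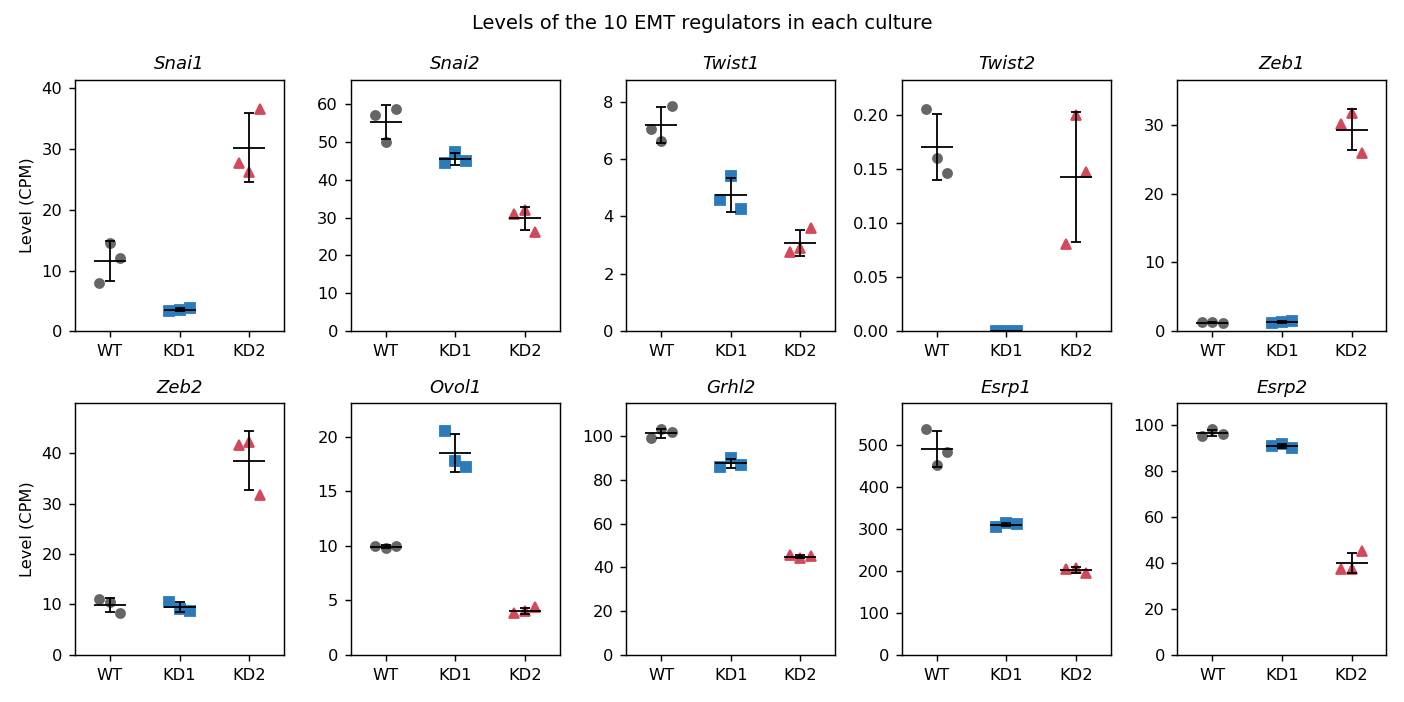
Level of each of the 10 regulators in every culture, in CPM on linear axes that start at 0 and differ between panels. Symbols are single cultures (3 WT, 3 KD1, 3 KD2), with the mean and SD of each line. *Zeb1* lies between 26.0 and 31.8 CPM in KD2 and between 1.17 and 1.45 CPM in the 6 other cultures, and *Ovol1* is highest in KD1 and lowest in KD2.

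*Zeb1* (ENSMUSG00000024238, chromosome 18 of GRCm38, 5591860 to 5775467, plus strand) encodes a zinc finger and homeodomain repressor of *Cdh1* and of the miR-200 genes. It had 25, 33 and 24 counts in WT, 32, 33 and 36 counts in KD1, and 749, 955 and 530 counts in KD2. Its level was 1.28, 1.32 and 1.17 CPM in WT, 1.18, 1.30 and 1.45 CPM in KD1, and 30.2, 31.8 and 26.0 CPM in KD2. The WT and KD1 cultures overlapped, and every KD2 culture stood far above them. The log2 fold change was 4.54 ± 0.128 (SE, n = 3 per line) in KD2 against WT, or 23.3-fold higher (edgeR quasi-likelihood adjusted p = 4.6e-12). This was the widest difference between a KD line and WT among the 9 regulators tested. In KD1 against WT the log2 fold change was 0.05 ± 0.192, with an edgeR adjusted p of 0.86. The genes tested whose starts lay within 2 Mb of *Zeb1* numbered 14, and their median log2 fold change in KD2 against WT was -0.12. In KD1 against WT their median was 0.29. Around the other 8 regulators tested the median in KD2 against WT lay between -0.27 and 0.46, the latter over only 3 genes around *Zeb2*.

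*Zeb2* (ENSMUSG00000026872, chromosome 2, 44983632 to 45117395, minus strand), the paralogue of *Zeb1*, was also highest in KD2, with a higher level in WT. It was at 11, 10.5 and 8.34 CPM in WT, 10.5, 9.19 and 8.62 CPM in KD1, and 41.5, 42.2 and 31.7 CPM in KD2. KD2 did not overlap the other lines, and WT and KD1 overlapped each other. *Zeb2* was 3.88-fold higher in KD2 than in WT (log2 fold change 1.96 ± 0.127, edgeR adjusted p = 1.3e-08) and 4.07-fold higher in KD2 than in KD1 (edgeR adjusted p = 5e-09). In KD1 against WT the log2 fold change was -0.07 ± 0.14 (edgeR adjusted p = 0.69). An antisense gene, *Zeb2os*, overlaps 3.27% of its exon bases and had at most 11 counts. Both ZEB transcripts, which carry the most miR-200 seed matches of the 10, were among the 3 regulators that rose in KD2. The other, *Snai1*, held 1 match, while *Snai2* and *Esrp1*, with 2 each, were lower in KD2. A link between seed matches and levels was not tested.

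*Snai1* (ENSMUSG00000042821, chromosome 2, 167538195 to 167542814, plus strand) encodes a zinc finger repressor that acts early in the transition. Its level was 7.98, 14.6 and 12.1 CPM in WT, 3.28, 3.57 and 3.79 CPM in KD1, and 27.7, 26.3 and 36.7 CPM in KD2. The 3 lines did not overlap, with KD1 lowest and KD2 highest. *Snai1* fell 3.29-fold in KD1 (log2 fold change -1.72 ± 0.209, edgeR adjusted p = 8.4e-06) and rose 2.58-fold in KD2 (log2 fold change 1.37 ± 0.17, edgeR adjusted p = 7.8e-06). Between the KD lines it differed by 8.48-fold (log2 fold change 3.08 ± 0.195, edgeR adjusted p = 6.1e-09). The lowest WT value came from WT replicate 1 and the highest KD2 value from KD2 replicate 3, the cultures that stood apart. Without WT replicate 1 the log2 fold change was -1.92 in KD1 and 1.16 in KD2 against WT, and without KD2 replicate 3 it was 1.23 in KD2 against WT. *Snai1* was the only regulator past 2-fold in KD1.

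*Snai2* (ENSMUSG00000022676, chromosome 16, 14705852 to 14709385, plus strand), which is abundant in basal mammary cells, went the other way from *Snai1* in KD2. It had 1115, 1250 and 1201 counts in WT, 1201, 1204 and 1118 counts in KD1, and 768, 965 and 536 counts in KD2. Scaled for depth, it averaged 55.2 ± 4.61 CPM in WT, 45.5 ± 1.56 in KD1 and 29.8 ± 3.06 in KD2 (SD, n = 3 each). On that scale the lines did not overlap, and the order was WT, KD1, KD2 from high to low. The fall was 1.84-fold in KD2 (log2 fold change -0.88 ± 0.0829, edgeR adjusted p = 4.9e-07). It was 1.21-fold in KD1 (log2 fold change -0.28 ± 0.0807, edgeR adjusted p = 0.0097), and this call was lost without WT replicate 3 (log2 fold change -0.21, edgeR adjusted p = 0.076).

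*Twist1* (ENSMUSG00000035799, chromosome 12, 33957671 to 33959829, plus strand), a basic helix-loop-helix factor, had the same order as *Snai2* at a lower level. Its level was 7.06, 6.63 and 7.85 CPM in WT, 4.57, 5.42 and 4.27 CPM in KD1, and 2.75, 2.89 and 3.59 CPM in KD2. Again no line overlapped another. *Twist1* fell 1.51-fold in KD1 (log2 fold change -0.59 ± 0.135, edgeR adjusted p = 0.0019) and 2.35-fold in KD2 (log2 fold change -1.23 ± 0.143, edgeR adjusted p = 4.1e-06).

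*Twist2* (ENSMUSG00000007805, chromosome 1, 91801461 to 91848028, plus strand), its paralogue, was near the limit of detection in every line. It had 4, 4 and 3 counts in WT, 0 counts in each KD1 culture, and 2, 6 and 3 counts in KD2. With KD1 set to the floor of 3 counts per library, the level in WT exceeded that in KD1 by at least 1.46-fold. Without the expression filter, edgeR gave an adjusted p of 0.00099 for KD1 against WT and 0.86 for KD2 against WT. An antisense gene overlaps 46.5% of its exon bases, so reads of the 2 genes cannot be told apart unless strand was used in counting, which is not given in the sources used here.

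*Ovol1* (ENSMUSG00000024922, chromosome 19, 5549136 to 5560646, minus strand) encodes a zinc finger repressor that opposes the ZEB factors and restrains epithelial progenitors. It was the only regulator that rose in KD1. Its level was 10.0, 9.79 and 10.0 CPM in WT, 20.5, 17.8 and 17.2 CPM in KD1, and 3.84, 3.99 and 4.37 CPM in KD2. The lines did not overlap, and the order was the reverse of that of *Snai1*. *Ovol1* was 1.86-fold higher in KD1 (log2 fold change 0.90 ± 0.092, edgeR adjusted p = 1.5e-06) and 2.45-fold lower in KD2 (log2 fold change -1.29 ± 0.108, edgeR adjusted p = 1.5e-07). Between KD2 and KD1 the difference was 4.57-fold (log2 fold change -2.19 ± 0.101, edgeR adjusted p = 2.2e-10). A processed pseudogene on the opposite strand, *Gm31166*, overlaps 19.8% of the exon bases of *Ovol1* and had at most 7 counts.

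*Grhl2* (ENSMUSG00000022286, chromosome 15, 37233036 to 37363569, plus strand) encodes a factor that activates *Cdh1* and claudin genes. It stood at 99.0, 103 and 102 CPM in WT, 85.9, 90.0 and 86.7 CPM in KD1, and 45.5, 44.2 and 45.0 CPM in KD2. Replicates were close together and no line overlapped another. *Grhl2* was 2.26-fold lower in KD2 (log2 fold change -1.18 ± 0.0549, edgeR adjusted p = 5.1e-10) and 1.16-fold lower in KD1 (log2 fold change -0.21 ± 0.0532, edgeR adjusted p = 0.0034).

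The epithelial splicing factors *Esrp1* (ENSMUSG00000040728, chromosome 4, 11331933 to 11386783, minus strand) and *Esrp2* (ENSMUSG00000084128, chromosome 8, 106130319 to 106136974, minus strand) both fell in KD2, and *Esrp1* also fell in KD1. *Esrp1* was at 538, 452 and 483 CPM in WT, 306, 314 and 311 CPM in KD1, and 205, 207 and 195 CPM in KD2. *Esrp2* was at 95.3, 98.3 and 96.4 CPM in WT, 91.0, 92.0 and 90.0 CPM in KD1, and 37.6, 37.4 and 45.3 CPM in KD2. All 3 lines were separate for *Esrp1*, whereas for *Esrp2* KD1 lay close below WT and KD2 far below both. In KD2 *Esrp1* was 2.43-fold lower (log2 fold change -1.28 ± 0.0655, edgeR adjusted p = 1.2e-09) and *Esrp2* was 2.42-fold lower (log2 fold change -1.27 ± 0.0721, edgeR adjusted p = 3.3e-09). In KD1 *Esrp1* was 1.58-fold lower (log2 fold change -0.66 ± 0.0646, edgeR adjusted p = 9.2e-07), while *Esrp2* did not pass the test (log2 fold change -0.09 ± 0.0693, edgeR adjusted p = 0.31). The gene *Nfatc3* on the opposite strand overlaps 5.05% of the exon bases of *Esrp2* and had up to 7215 counts. Unless strand was used in counting, reads from the overlap could not be assigned to a single gene.

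**Figure D2:**
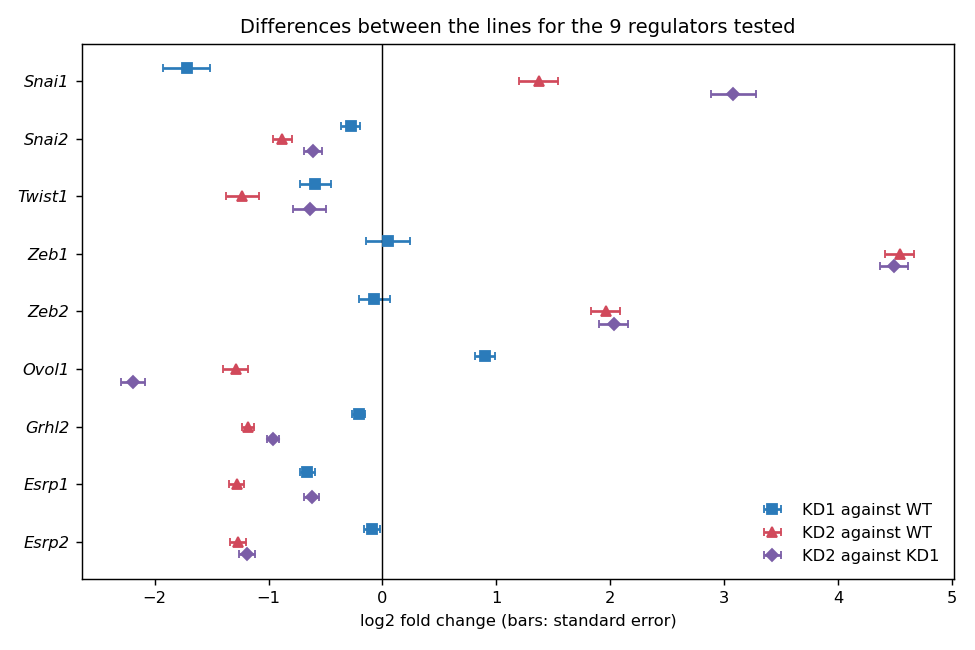
Log2 fold change of the 9 regulators tested, with standard errors as bars, for KD1 against WT, KD2 against WT and KD2 against KD1. *Snai1* and *Ovol1* lie on opposite sides of 0 in the 2 comparisons with WT, and *Zeb1* and *Zeb2* lie near 0 in KD1 (0.05 and -0.07) and at 4.54 and 1.96 in KD2.

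Levels were also set per kb of exon length, with the exons of all annotated transcripts of a gene merged. That length can exceed a single mRNA, so the level of a gene with many exon forms can be set too low. It was 19.94 kb for *Zeb2*, 10.27 kb for *Zeb1* and 1.62 kb for *Snai1*. On this scale *Esrp1* had the highest level of the 10 in every line, with a mean of 77.8 CPM per kb in WT, 49.2 in KD1 and 32.1 in KD2. In WT it was followed by *Snai2* at 27.3, *Esrp2* at 22.3, *Grhl2* at 11.8, *Snai1* at 7.14, *Twist1* at 4.41, *Ovol1* at 2.85, *Zeb2* at 0.498, *Zeb1* at 0.122 and *Twist2* at 0.0537 CPM per kb. No neighbours in this order overlapped in WT. In KD1 the order of the first 4 was the same, and *Ovol1* (5.31), *Twist1* (2.92) and *Snai1* (2.19 CPM per kb) followed. In KD2 *Snai1* was second at 18.6 CPM per kb, and *Zeb1* at 2.86 stood above *Zeb2* at 1.93 and *Twist1* at 1.89 CPM per kb. *Zeb2* and *Twist1* overlapped there and were the only neighbours that did. With these lengths the ZEB transcripts remained below *Esrp1*, *Esrp2* and *Grhl2* even in KD2. In CPM without length *Zeb2* averaged 38.5 and *Zeb1* 29.4 in KD2, so the order of the 2 depends on the lengths used.

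The genes whose levels followed those of a regulator most closely over the 9 cultures were named by the highest Pearson correlation of log2 CPM, as a description over 9 points that fall into 3 lines. For *Snai1* it was *Epb41l1* (r = 0.997), for *Snai2* *Brix1* (r = 0.999), for *Twist1* *Crcp* (r = 0.990), for *Zeb1* *AI593442* (r = 0.999) and for *Zeb2* *E2f6* (r = 0.997). For *Ovol1* it was *Nipal4* (r = 0.997), for *Grhl2* *Prmt5* (r = 0.999), for *Esrp1* *Hspa9* (r = 0.998) and for *Esrp2* *Pmm1* (r = 0.999). *AI593442* was at 0 CPM in WT and in KD1 and at 0.604 ± 0.0623 CPM (SD, n = 3) in KD2.

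The regulators and the gene lists that follow were chosen by name with earlier results of these data known. The shares of all genes beside their counts are therefore a description and no test of a list. Of 13 other transcription factors of the epithelial state 12 were tested. At an adjusted p under 0.05 by edgeR, 7 rose and 3 fell in KD1 against WT, where 26.9% of all genes rose and 30.0% fell. In KD2 against WT 3 rose and 7 fell, where 34.0% of all genes rose and 33.3% fell. Past 2-fold 6 rose and 1 fell in KD1, with a median log2 fold change of 1.18, where 9.34% of all genes rose and 7.49% fell. In KD2 1 rose and 3 fell past 2-fold, with a median of -0.59, where 14.5% of all genes rose and 6.71% fell. *Ehf*, an ETS factor of epithelia, was at 1.23, 1.12 and 1.56 CPM in WT, 59.9, 57.0 and 64.3 CPM in KD1, and 2.26, 1.83 and 1.67 CPM in KD2, and its rise in KD1 was 46.5-fold (edgeR adjusted p = 1.4e-13). *Grhl3*, a paralogue of *Grhl2*, rose 2.33-fold in KD1 (edgeR adjusted p = 1.5e-08) and fell 1.61-fold in KD2 (edgeR adjusted p = 1.2e-05). The paralogues of the regulators did not always follow them. *Ovol2* fell in both lines, from a WT mean of 14.6 ± 0.741 CPM to 6.86 ± 0.203 in KD1 and 6.65 ± 0.588 in KD2 (SD, n = 3 each), whereas *Ovol1* rose in KD1. *Grhl1* also fell in both, from 35.8 ± 0.977 to 19.2 ± 0.971 and 17.9 ± 0.841 CPM. *Klf5*, a zinc finger factor of basal and luminal progenitors, fell 3.72-fold in KD2 (edgeR adjusted p = 5e-11) and was not called in KD1 (edgeR adjusted p = 0.22), although without KD2 replicate 3 it was (log2 fold change 0.12). *Elf5*, which drives alveolar differentiation, was 7.32-fold higher in KD2 than in WT (edgeR adjusted p = 1.7e-05), from a WT level of 0.160 to 0.341 CPM that is close to the floor.

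Of 16 further transcription factors linked to the transition, 13 were tested. In KD2 against WT 1 rose and 7 fell at an adjusted p under 0.05 by edgeR, and 0 rose and 3 fell past 2-fold, with a median log2 fold change of -0.36. In KD1 against WT 4 rose and 6 fell at an adjusted p under 0.05, and 2 rose and 0 fell past 2-fold, with a median of -0.04. The shares of all genes are those given for the epithelial factors. *Snai3*, a paralogue of *Snai1*, averaged 3.48 ± 0.897 CPM in WT, 13.4 ± 0.458 in KD1 and 1.71 ± 0.477 in KD2, so that its order of lines was the reverse of that of *Snai1*. *Prrx1*, a homeobox factor of mesenchyme, was 13.7-fold lower in KD2 than in WT (edgeR adjusted p = 1.9e-08) and 1.69-fold higher in KD1 (edgeR adjusted p = 0.0011). The count of lower genes in KD1 was 1 or 2 rather than 0 under 9 of the alternative settings.

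Genes of the epithelial state were described from a list of 30 junction and surface genes, of which 29 were tested. Whether the regulators act on these genes in HC11 was not tested. At an adjusted p under 0.05 by edgeR, 19 rose and 1 fell in KD1 against WT, where 26.9% of all genes rose and 30.0% fell. In KD2 against WT 4 rose and 20 fell, where 34.0% of all genes rose and 33.3% fell. In KD1 against WT 5 rose and 0 fell past 2-fold (median log2 fold change 0.41), where 9.34% and 7.49% of all genes did, and in KD2 against WT 0 rose and 6 fell (median -0.52), where 14.5% and 6.71% did. Between the KD lines 18 of the 29 were lower in KD2 past 2-fold and 0 were higher (median -1.12), where 8.58% of all genes were lower and 14.7% higher. *Cdh1*, the E-cadherin gene, averaged 691 ± 33.5 CPM in WT, 895 ± 9.11 in KD1 and 428 ± 9.16 in KD2. It rose 1.29-fold in KD1 (edgeR adjusted p = 3e-05) and fell 1.62-fold in KD2 (edgeR adjusted p = 5.3e-08). *Epcam*, an epithelial adhesion molecule, moved the same way, 1.24-fold higher in KD1 (edgeR adjusted p = 0.0029) and 1.29-fold lower in KD2 (edgeR adjusted p = 0.00064). *Cldn4*, a tight junction claudin, was 28.8-fold higher in KD1 than in WT (edgeR adjusted p = 6.3e-14) and was not called in KD2 (edgeR adjusted p = 0.056), although without KD2 replicate 3 it was (log2 fold change -0.30). *Ap1m2*, which sorts proteins to the basolateral membrane, fell 4.06-fold in KD2 (edgeR adjusted p = 2.6e-11) and was not called in KD1 (edgeR adjusted p = 0.1), although without WT replicate 1 it was (log2 fold change -0.17). *Krt8*, a luminal keratin on the same list, rose 1.70-fold in KD2 (edgeR adjusted p = 7.4e-06), against the direction of most of the list. It was named after its values were seen.

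The E-boxes that SNAI and ZEB proteins bind read CACCTG, or CAGGTG on the other strand, and were searched in the 300 bases from 250 before to 50 after each start in RefSeq. Of 32851 promoters, 20.2% held at least 1, and by gene 22.6% of 27025 did. Of the epithelial junction and surface genes 21 had a promoter in that table, and 17 of them (81.0%) held an E-box, as against 1 of 15 mesenchymal genes (6.67%). Both lists were chosen by name, and known targets of these repressors may be among the junction genes. The shares therefore describe the lists and are no test of where E-boxes lie. *Cdh1* had no promoter in that table. Promoters of 4 of the regulators were in the table, and *Snai1* alone held one. Of the 17 junction genes with an E-box 12 were lower in KD2 than in WT at an adjusted p under 0.05 by edgeR, 4 of them past 2-fold, where 33.3% and 6.71% of all genes were. Of the 4 without one 2 were lower, and 0 past 2-fold. In KD2 against KD1 10 of the 17 with an E-box and 3 of the 4 without one were lower past 2-fold, where 8.58% of all genes were. In KD1 against WT 10 of the 17 and 4 of the 4 were higher at an adjusted p under 0.05 by edgeR, where 26.9% of all genes were. These promoters were chosen to show the arrangement, with the E-box in capitals. They are *Snai1* (chr2:167537945-167538244, plus strand), with 1 at 126 bases before the start, *Epcam* (chr17:87635729-87636028, plus strand), with 2, *Ap1m2* (chr9:21312284-21312583, minus strand), with 4, and *Cldn4* (chr5:134946885-134947184, minus strand), with 2, all in GRCm38.p6 and printed in the direction of transcription. No binding was measured here.
Snai1 promoter: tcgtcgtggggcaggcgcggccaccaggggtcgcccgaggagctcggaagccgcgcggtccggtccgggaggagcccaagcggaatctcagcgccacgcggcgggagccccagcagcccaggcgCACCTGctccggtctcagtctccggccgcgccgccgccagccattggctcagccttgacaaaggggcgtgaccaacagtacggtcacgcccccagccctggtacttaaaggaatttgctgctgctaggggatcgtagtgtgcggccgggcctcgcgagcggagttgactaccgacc
Epcam promoter: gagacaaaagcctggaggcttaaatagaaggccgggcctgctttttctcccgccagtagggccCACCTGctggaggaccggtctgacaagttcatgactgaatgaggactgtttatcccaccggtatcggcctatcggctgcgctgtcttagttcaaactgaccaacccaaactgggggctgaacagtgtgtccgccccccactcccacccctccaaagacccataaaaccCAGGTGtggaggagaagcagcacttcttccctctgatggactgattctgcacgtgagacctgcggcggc
Ap1m2 promoter: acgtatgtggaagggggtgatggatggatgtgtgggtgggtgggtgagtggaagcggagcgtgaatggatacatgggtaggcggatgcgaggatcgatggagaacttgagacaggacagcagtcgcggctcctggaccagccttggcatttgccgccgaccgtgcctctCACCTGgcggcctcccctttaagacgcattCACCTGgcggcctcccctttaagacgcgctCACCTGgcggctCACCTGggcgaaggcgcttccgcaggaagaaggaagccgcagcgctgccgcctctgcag
Cldn4 promoter: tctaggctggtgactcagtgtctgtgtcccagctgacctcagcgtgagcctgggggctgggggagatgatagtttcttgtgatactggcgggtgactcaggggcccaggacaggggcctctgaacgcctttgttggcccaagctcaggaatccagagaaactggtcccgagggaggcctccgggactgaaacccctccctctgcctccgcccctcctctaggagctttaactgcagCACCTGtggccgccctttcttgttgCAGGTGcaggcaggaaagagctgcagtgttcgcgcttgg

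Of 31 genes of the mesenchymal state 25 were tested, and more of them fell than rose in KD1 and more rose than fell in KD2. At an adjusted p under 0.05 by edgeR, 7 rose and 14 fell in KD1 against WT, where 26.9% of all genes rose and 30.0% fell. The rises in KD1 were thus near the share of all genes. For KD2 against WT 17 rose and 4 fell, where 34.0% of all genes rose and 33.3% fell. In KD1 against WT 14 fell and 3 rose past 2-fold (median log2 fold change -2.21), where 7.49% of all genes fell and 9.34% rose. In KD2 against WT 13 rose and 1 fell past 2-fold (median 1.04), where 14.5% of all genes rose and 6.71% fell. In KD2 against KD1 16 were higher and 2 lower past 2-fold (median 2.29), where 14.7% of all genes were higher and 8.58% lower. *Cdh2*, the N-cadherin gene, had 463, 606 and 499 counts in WT, 8, 5 and 10 counts in KD1, and 4095, 5246 and 3218 counts in KD2. It was 79.7-fold lower in KD1 (edgeR adjusted p = 1.5e-13) and 6.89-fold higher in KD2 (edgeR adjusted p = 1.5e-12). *Vim*, which encodes the intermediate filament vimentin, averaged 145 ± 27.7 CPM in WT, 18.3 ± 0.544 in KD1 and 1090 ± 98.6 in KD2. *Fn1*, the fibronectin gene, fell 6.93-fold in KD1 (edgeR adjusted p = 3.8e-13) and rose 2.77-fold in KD2 (edgeR adjusted p = 2.7e-10). All 3 genes followed the order of *Snai1*, lowest in KD1 and highest in KD2, with no overlap between lines.

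*Postn* and *Mmp9* did not have that order. *Postn*, which encodes the matrix protein periostin, fell in both lines, 47.3-fold in KD1 (edgeR adjusted p = 3.1e-14) and 3.07-fold in KD2 (edgeR adjusted p = 7.6e-10). *Mmp9*, a matrix metalloproteinase gene, had 1, 7 and 2 counts in WT and 91, 92 and 93 counts in KD1, and rose 22.6-fold there (edgeR adjusted p = 2.6e-08). The order of *Snai1* was also that of *Col1a2* and *Pdgfrb*. *Col1a2*, a chain of type I collagen, had 21, 40 and 17 counts in WT, 0 in each KD1 culture, and 71, 98 and 64 in KD2. Set against the floor, the KD1 level of *Col1a2* was at least 10.0-fold lower. *Col1a1*, another chain of type I collagen, was more abundant and fell in both lines. It averaged 7.03 ± 1.55 CPM in WT, 0.571 ± 0.099 in KD1 and 4.37 ± 0.599 in KD2. Its fall was 12.3-fold in KD1 (edgeR adjusted p = 7.7e-09) and 1.63-fold in KD2 (edgeR adjusted p = 0.0019). *Col1a1* was named after its values were seen. *Pdgfrb*, a growth factor receptor of fibroblasts and pericytes, averaged 0.822 ± 0.236 CPM in WT, 0.142 ± 0.0581 in KD1 and 66.7 ± 5.02 in KD2. It fell 5.67-fold in KD1 (edgeR adjusted p = 6.6e-05) and rose 79.9-fold in KD2 (edgeR adjusted p = 4.6e-13). When genes with fewer than 10 counts in any culture were dropped, 8 mesenchymal genes fell in KD1 and 6 rose in KD2 past 2-fold, since genes with few counts in any line, such as *Col1a2* in KD1 and *Mmp9* in WT, left the test.

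**Figure D3:**
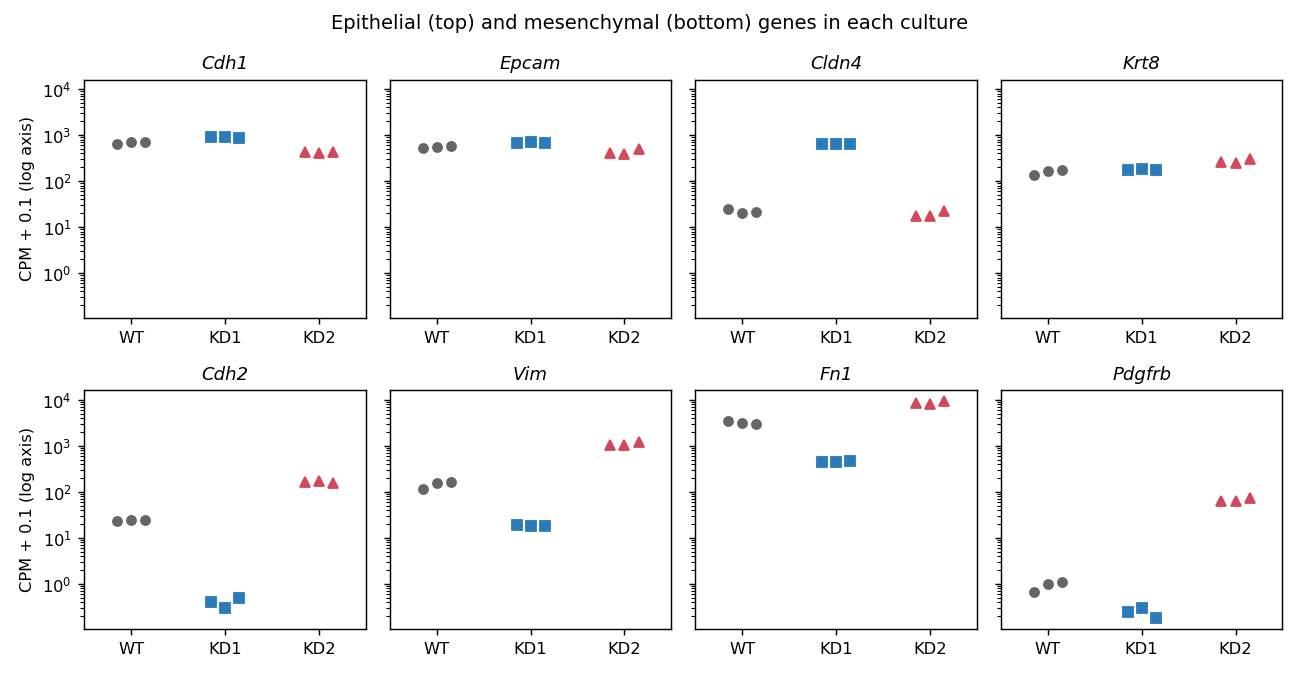
Levels of 4 epithelial genes (top) and 4 mesenchymal genes (bottom) in each culture, as CPM plus 0.1 on log axes. The mesenchymal genes are lowest in KD1 and highest in KD2, with *Cdh2* between 0.196 and 0.403 CPM in KD1 and between 158 and 174 CPM in KD2, while *Cdh1* ranges only from 417 to 905 CPM over the 9 cultures.

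Markers of other cell types were set beside these results because the mesenchymal list shares genes with fibroblasts. The 8 fibroblast markers summed to 17.0 to 23.0 CPM in WT, 8.06 to 10.1 in KD1 and 90.0 to 99.8 in KD2. Of these, 5 were tested. Past 2-fold against WT, 3 rose in KD2, where 14.5% of all genes did, and 4 fell in KD1, where 7.49% did. All 8 are also on the mesenchymal list. *Dcn*, *Lum* and *Thy1* did not pass the filter, and *Pdgfrb* made up most of the sum in KD2. The endothelial markers summed to 2.05 to 2.49 CPM in WT, 4.87 to 5.62 in KD1 and 1.43 to 2.10 in KD2. For the adipocyte markers the sums were 0.146 to 0.256 CPM in WT, 2.12 to 2.94 in KD1 and 0.0491 to 0.565 in KD2. The leukocyte markers summed to 0.0491 to 0.627 CPM over all cultures, and *Emcn* and *Adgre1* had 0 counts in all 9. The part of other cells in the levels of the regulators was not tested.

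**Figure D4:**
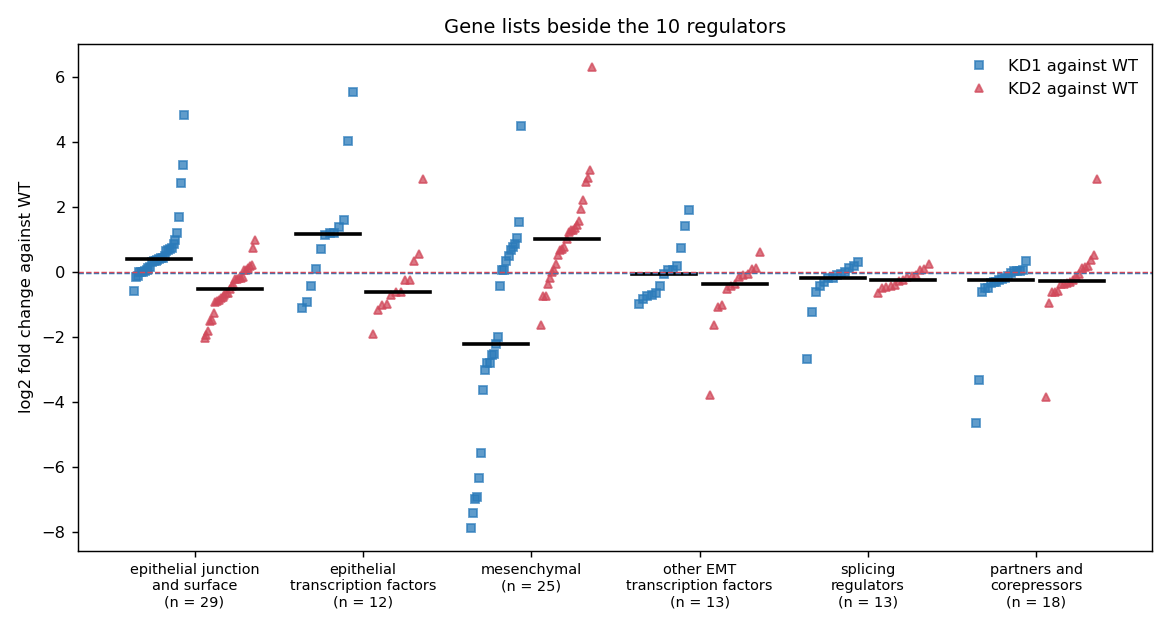
Log2 fold change against WT of every tested gene on 6 lists, with KD1 as squares and KD2 as triangles, ordered by value within a list. Bars mark list medians and dashed lines the all-gene medians (-0.03 and 0.01). The mesenchymal list has a median of -2.21 in KD1 and 1.04 in KD2, and the epithelial transcription factors have 1.18 and -0.59.

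The fall of *Esrp1* and *Esrp2* in KD2 was set beside transcripts that ESRP proteins splice and beside other splicing factors. Gene-level counts do not show splice forms, so only total levels can be given. Of 12 transcripts on the list 12 were tested, with median log2 fold changes of 0.01 for KD1 and -0.05 for KD2 against WT. *Fgfr2*, the growth factor receptor whose exon choice ESRP proteins set, averaged 27.5 ± 3.38 CPM in WT, 3.01 ± 0.504 in KD1 and 7.23 ± 0.291 in KD2, a fall of 9.13-fold in KD1 (edgeR adjusted p = 5.6e-11) and 3.81-fold in KD2 (edgeR adjusted p = 4.5e-09). *Cd44*, the hyaluronan receptor, rose 2.65-fold in KD1 (edgeR adjusted p = 2.7e-10) and fell 1.38-fold in KD2 (edgeR adjusted p = 1.8e-05). *Enah*, an actin regulator, rose in both lines, 2.26-fold and 4.00-fold (edgeR adjusted p = 1.2e-09 and 1.3e-11). *Ctnnd1*, the p120 catenin gene, rose 1.90-fold in KD1 (edgeR adjusted p = 9.1e-08) and was not called in KD2 (edgeR adjusted p = 0.13), although without KD2 replicate 3 it was (log2 fold change 0.24).

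Of 14 splicing factors other than the ESRP pair 13 were tested, and 0 were past 2-fold in KD2 against WT by edgeR, where 21.2% of all genes were, although 7 were lower there at an adjusted p under 0.05, where 33.3% of all genes were. In KD1 2 fell past 2-fold, where 7.49% of all genes did. *Celf2*, an RNA-binding protein of mesenchymal cells, averaged 27.3 ± 0.911 CPM in WT, 4.31 ± 0.322 in KD1 and 29.0 ± 4.82 in KD2. It was not called in KD2 against WT (edgeR adjusted p = 0.43), although without KD2 replicate 3 it was (log2 fold change 0.25). *Rbm47*, an RNA-binding protein of epithelia, rose 1.26-fold in KD1 (edgeR adjusted p = 0.00016) and fell 1.40-fold in KD2 (edgeR adjusted p = 4.5e-06), the same directions as *Cdh1*. Beside the ESRP genes, changes past 2-fold in KD2 were thus not seen on this list.

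Partners, corepressors and turnover factors of the SNAI, TWIST and ZEB proteins mostly stayed within 2-fold. Of 19 on the list 18 were tested, with 2 past 2-fold in each comparison with WT, where 16.8% of all genes in KD1 and 21.2% in KD2 were, and medians of -0.22 in KD1 and -0.27 in KD2. *Id4*, an inhibitor of helix-loop-helix factors that is abundant in basal mammary cells, averaged 204 ± 15.4 CPM in WT, 8.28 ± 0.815 in KD1 and 14.4 ± 1.43 in KD2, falls of 24.6-fold (edgeR adjusted p = 1.1e-13) and 14.2-fold (edgeR adjusted p = 1.1e-12). *Lmcd1*, a LIM domain protein, was placed on the list, but it is not an established partner of these proteins. It had 34, 47 and 47 counts in WT, 5, 6 and 4 in KD1, and 324, 424 and 323 in KD2, again the order of *Snai1*.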

How the data were processed

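RNA-seq was measured in 9 cultures of HC11 cells, 3 per line, grouped by the sample labels. The deposited table holds raw read counts, which the authors had made for 55228 genes without normalization. Per the study's methods and the processing notes, 50-base paired reads from poly-A-selected RNA had been trimmed with fastp, mapped to GRCm38 with HISAT2 and counted over exons with featureCounts, versions and strand setting not given in the sources used here. Counts ranged from 19231428 to 28360592 per culture, and counting error limits the precision of genes near the floor. The labels state that lysates were flash frozen and the methods that they were not.

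The counts were fitted with edgeR 4.0.16 in R 4.3.3 (TMM, its expression filter on the 3 lines, 1 quasi-likelihood fit of all 9 cultures without a block), and p-values were adjusted by Benjamini-Hochberg over 15253 genes. Calls were made at an adjusted p under 0.05, and past 2-fold if the absolute log2 fold change also exceeded 1. The script was tested on simulated counts first. Genes named were the 10 regulators, for each list the called gene with the largest rise and fall in each line against WT, 12 genes chosen by name, *Vangl2*, and the most similar gene of each regulator. The regulators, lists and named genes were chosen with earlier results of these data known. Positions, exon lengths, overlaps and 3′UTRs came from GENCODE M21 (GRCm38), a release other than the authors', and 53569 of the 55228 gene names matched. Sequences came from RefSeq and the GRCm38 genome. A fold against a line whose cultures were all at or under the floor of 3 counts was computed against that floor per library.

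Alternatives were DESeq2 1.42.0, median-of-ratios or library-size scaling, no filter beyond 1 count, at least 10 counts in every culture, the 6 cultures compared alone, a replicate block, and each culture left out. Replicates were compared by chi-square per degree of freedom, without a set threshold. Counting error alone gives about 1. The lowest values were 1.37 to 1.81 within KD1 and 1.74 between KD2 replicates 1 and 2. How far these cultures were handled apart cannot be told from them.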

Additional observations from a re-analysis of the deposited data

Results flagged for a closer look

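The 2 KD lines differed from each other in most of the genes named. The difference itself was tested in KD2 against KD1 with edgeR's quasi-likelihood test (3 cultures per line, Benjamini-Hochberg adjustment over all genes), and each value below is the log2 fold change, positive where KD2 is higher. Since 67.8% of all genes tested differed between these lines, a difference by itself does not set a gene apart.

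All 9 regulators tested are among them, with 3.08 for *Snai1*, 4.49 for *Zeb1*, 2.03 for *Zeb2*, -0.61 for *Snai2*, -0.64 for *Twist1*, -2.19 for *Ovol1*, -0.96 for *Grhl2*, -0.62 for *Esrp1* and -1.19 for *Esrp2*. *Zeb1* and *Snai1* were the most different of the mesenchymal regulators and *Ovol1* of the epithelial ones. The edgeR adjusted p was 7.6e-13 for *Zeb1*, 6.1e-09 for *Snai1* and 2.2e-10 for *Ovol1*.

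Among other transcription factors the value was -4.97 for *Ehf*, -1.99 for *Klf5*, -1.91 for *Grhl3*, 1.73 for *Elf5*, -2.98 for *Snai3* and -4.54 for *Prrx1*. Among junction and surface genes it was -5.06 for *Cldn4*, -1.90 for *Ap1m2*, -1.07 for *Cdh1* and -0.67 for *Epcam*.

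Among mesenchymal genes it was 9.10 for *Cdh2*, 5.90 for *Vim*, 4.26 for *Fn1*, 8.82 for *Pdgfrb*, 3.95 for *Postn* and -2.54 for *Mmp9*. For *Col1a2*, at 0 counts in all 3 KD1 cultures, the fitted value of 9.23 depends on the prior count, and against the floor of 3 counts per library the gene was at least 26.5-fold higher in KD2.

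Among splicing factors and their targets it was 2.76 for *Celf2*, -0.82 for *Rbm47*, -1.87 for *Cd44*, 1.26 for *Fgfr2*, 0.83 for *Enah* and -0.79 for *Ctnnd1*. On the list of partners and corepressors it was 0.79 for *Id4* and 6.17 for *Lmcd1*.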

How the results depend on the processing

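Of 432 recomputed values of the 9 regulators tested, 429 kept their direction and their side of the threshold, 1 lost its call (*Snai2* in KD1 without WT replicate 3) and 2, uncalled throughout, changed sign. These were *Zeb1* in KD1 against WT, at -0.02 without KD1 replicate 3 (range -0.02 to 0.13 over cultures left out), and *Zeb2* in KD1 against WT, at 0.00 without WT replicate 1 (range -0.16 to 0.00). *Vangl2* in KD2 against WT turned to -0.04 without WT replicate 1 (range -0.04 to 0.13), and with library size alone *Ovol2* and *Grhl1* in KD2 against KD1 turned to 0.08 and 0.02. Of 1322 recomputed values of the other named genes 1303 kept their side of the threshold, 3 changed sign, 2 lost a call and 14 gained one. The calls lost were of *Ehf* in KD2 against WT (0.48 without WT replicate 2 and 0.45 without KD2 replicate 1). The calls gained were of *Elf5*, *Klf5* and *Ap1m2* in KD1 against WT and of *Cldn4*, *Celf2* and *Ctnnd1* in KD2 against WT, and leaving out KD2 replicate 3 gave 5 of them, of *Elf5*, *Klf5*, *Cldn4*, *Celf2* and *Ctnnd1*. Regulators past 2-fold in KD1 numbered 2 rather than 1 with DESeq2 and with no filter, as *Twist2* was then tested. Over all alternatives regulators called ranged from 5 to 7 in KD1 against WT, 9 to 9 in KD2 against WT and 9 to 10 in KD2 against KD1. Replicate numbers did not pair the cultures, since deviations from line means correlated at 0.00117 on average over 9 same-numbered pairs and -0.00114 over 18 others. With the replicate block 6, 9 and 9 regulators were called, and the block changed no call of a regulator. With at least 10 counts in every culture, mesenchymal genes past 2-fold numbered 8 rather than 14 lower in KD1, 6 rather than 13 higher in KD2 against WT, and 10 rather than 16 higher in KD2 against KD1. The other list counts that moved by over 1.5 times were of 0 to 3 genes. Of these, lower genes among the further transition factors in KD2 went from 3 to 5 with no filter, and junction genes higher in KD2 against WT went from 0 to 1 with 7 settings, the block among them. *Twist2* at 0 to 6 counts is limited by depth.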
